A study of Mus musculus with 54 samples.

Results

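The comparison was of rd1 with wild-type (WT) retina at postnatal day 21 (PN21). Its members were the arrays titled rd1 PN21 and those titled WT PN21, 2 per genotype and 4 of the 54 arrays of the series, read over all 18193 genes with an annotated symbol. The series followed messenger RNA of C3H mouse retina on oligonucleotide arrays from PN5 to PN35. Both genotypes were C3H, and the labels name no treatment. The rd1 mice carried the rd1 allele on both chromosomes (C3Hrd1/rd1), in every cell of the body, and the controls carried none (C3Hwt/wt). Neural retinas were dissected, total RNA was purified on a cesium gradient and biotin-labelled cRNA was hybridised. The labels call the arrays biological replicates without saying how many animals each holds, so p-values measure the spread between arrays.

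Rods are the most numerous cells of the mouse retina and sense dim light through a cascade of transducin and a phosphodiesterase that lowers cyclic GMP. The rd1 allele disrupts Pde6b, the beta subunit of that phosphodiesterase, and rods die in the weeks after birth while most cones, inner neurons and glia outlast them. Equal amounts of RNA are hybridised whatever cells are left, so the transcripts of surviving cells take a larger share when rod RNA goes, and tissue that clings to the retina at dissection, such as pigment epithelium, adds its own transcripts. In bulk tissue, fewer cells of a type and less RNA per cell cannot be told apart.

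Values are log2 intensities of 1 probe set per gene, and differences are rd1 minus WT on that log2 scale. The sign ± gives the standard error of the fit, which rests on the spread within groups over 50 arrays of 10 ages. It can understate the spread where the PN21 arrays differ more. Between replicates of PN21, log2 differences had an SD of 0.1559 in WT and 0.2324 in rd1. A gene was called at a Benjamini-Hochberg adjusted p under 0.05 in limma over all genes, and higher, lower, rose and fell refer to rd1 relative to WT at PN21. Called were 6442 genes (35.4%), of which 4325 (23.8% of all genes) were higher and 2117 (11.6%) lower. At least 2-fold, 172 genes (0.945%) were higher and 410 (2.25%) lower. The falls were thus larger than the rises, and the median difference over all genes was 0.03. Replicates correlated over genes with r = 0.997 for WT and 0.9937 for rd1, where genes are not independent replicates. The 2 groups of arrays did not overlap for 63.3% of all genes, called or not, so a lack of overlap is common here. Arrays that differed from their replicate are given with the results they touch, among them interferon genes in WT replicate 1, lens genes in rd1 replicate 1, Aqp1, Car3 and Col8a2 between the rd1 arrays, and Pex5l between the WT arrays.

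To read rises against the lower share of rod RNA, the same fit was made after each array was centred on the mean of 43 amacrine and ganglion cell genes, types whose loss is not a feature of rd1 at this age. Those genes stood 0.46 higher in rd1 on the deposited scale, so the centred fit asks which genes rose by more than they did. It called 798 genes higher (4.39%) and 13071 lower (71.8%), with a median over all genes of -0.42. All of the 798 were also called higher on the deposited scale, where they were 18.5% of the rises. Of the other rises, 3014 (69.7%) were called in neither direction when centred and 513 (11.9%) were called lower. Centring instead on 23 ribosomal protein genes, which stood 0.27 higher in rd1, left 1630 genes higher, all among the rises (37.7% of them), and 7577 lower. Centring on the amacrine and ganglion genes lowered every difference by 0.46. That deepens each fall and leaves each rise of at least 2-fold above 0. Each of the 172 such rises, and each of the 2117 falls, was called in the same direction after it. This agreement, and that of the 798 with the rises, is largely set by the shift and is no separate support.

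**Figure D1:**
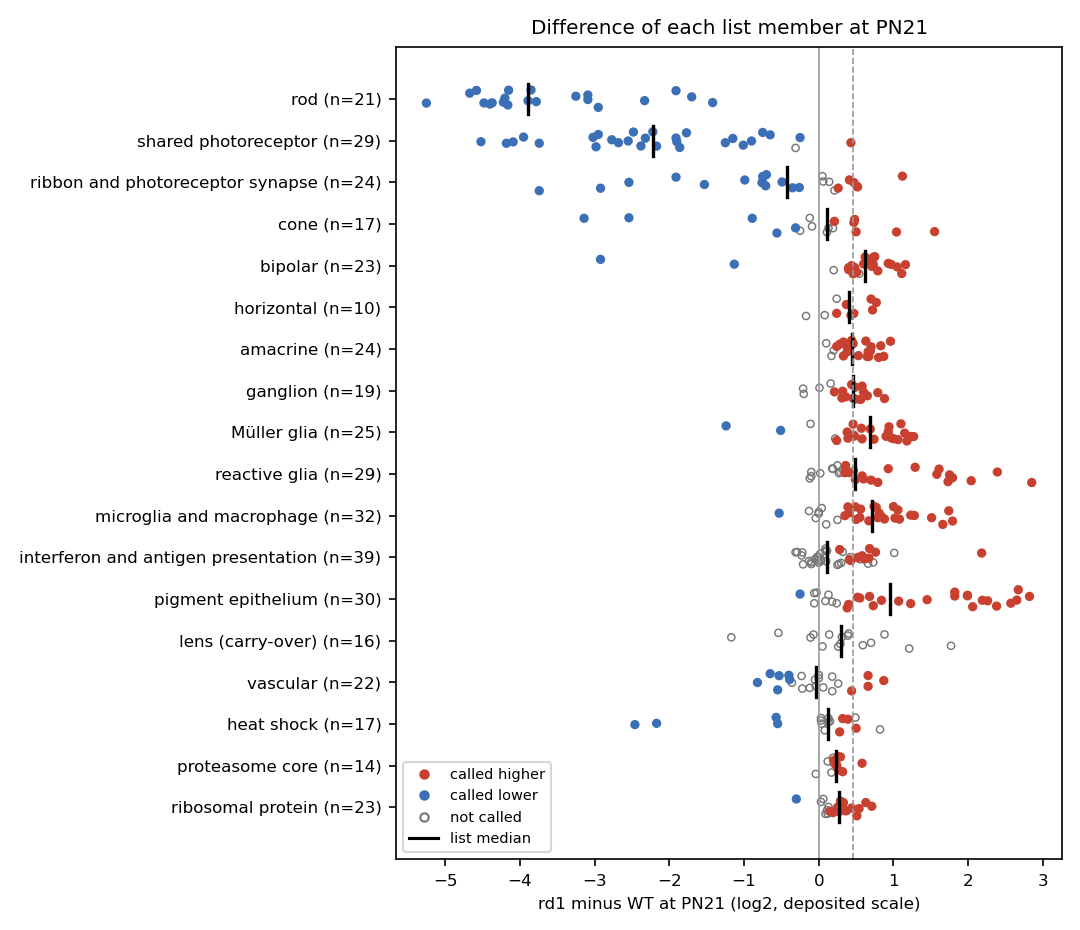
Difference between rd1 and WT at PN21 (log2, deposited scale) for every measured member of 18 gene lists. Filled points were called and open points were not, short black bars are list medians, and the dashed line marks the 0.46 by which amacrine and ganglion genes stood higher. Rod genes and all but 1 of the shared photoreceptor genes lie to the left of 0, and the medians of inner-neuron lists around the dashed line. The lists that reach furthest right are reactive glia (2.85), pigment epithelium (2.82) and interferon and antigen presentation (2.18).

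Pde6b, the gene that carries the mutation, had the largest fall. Its log2 level was 13.38 and 13.41 in the WT arrays and 7.15 and 7.02 in the rd1 arrays. The groups were far apart, by -6.31 ± 0.21 or 79.2-fold (adjusted p = 1.76e-25, limma). Pde6b aside, all 21 measured rod genes were lower (background 11.6%), with differences from -5.25 to -1.42 and a median of -3.89. Their mean per array was 12.32 in both WT arrays and 8.72 and 8.70 in rd1. The largest fall among them was that of Cnga1, the alpha subunit of the cyclic nucleotide-gated channel of rods. It read 12.09 and 12.14 in WT against 6.84 and 6.88 in rd1, a difference of -5.25 ± 0.12, or 38.1-fold. The channel's other rod subunit, Cngb1, fell by 4.37 (20.7-fold).

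The remaining rod genes fell by very different amounts. Nrl, the transcription factor that sets rod identity, stood at 13.59 and 13.51 in WT and 9.07 and 8.87 in rd1, a difference of -4.58 ± 0.07. The catalytic partner of Pde6b, Pde6a, fell by 4.67, the ion exchanger Slc24a1 fell by 4.48, and Guca1b, which activates guanylate cyclase, fell by 4.40. Transducin alpha, Gnat1, fell by 3.85 (14.4-fold) and the inhibitory phosphodiesterase subunit Pde6g fell by 3.09. Sag, rod arrestin, went from 14.29 and 14.34 to 12.32 and 12.49 (3.76-fold), Pdc, phosducin, fell by 1.70 and Gnb1, a transducin beta subunit, fell by 1.42. Pde6g, Sag, Pdc and Gnb1 were chosen after their values were seen.

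Promoters of rod genes often hold the core site of CRX, a homeodomain factor of photoreceptors. The letters TAATCC were searched on both strands in the 250 bases before the start, in 1 RefSeq promoter per gene (GRCm38.p6). They were found in 6 of the 15 rod genes with a listed promoter (40%) and in 5.51% of 14452 promoters, a description that shows no binding. The promoters of the channel subunits and of Samd11, a rod nuclear protein that fell by 3.78, are shown because Cngb1 and Samd11 hold the letters in 2 places and Cnga1, with 1, had the largest fall of the list. They are on the minus strand and are written 5′ to 3′ ending at the base before the start, with matches in capitals, and GGATTA is the same site on the other strand.
Cngb1, chr8:95306586-95306835: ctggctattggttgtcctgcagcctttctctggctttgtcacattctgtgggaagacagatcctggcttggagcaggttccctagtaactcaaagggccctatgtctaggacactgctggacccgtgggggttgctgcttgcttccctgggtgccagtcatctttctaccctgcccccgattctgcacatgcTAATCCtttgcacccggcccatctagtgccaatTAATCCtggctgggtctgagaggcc
Samd11, chr4:156255343-156255592: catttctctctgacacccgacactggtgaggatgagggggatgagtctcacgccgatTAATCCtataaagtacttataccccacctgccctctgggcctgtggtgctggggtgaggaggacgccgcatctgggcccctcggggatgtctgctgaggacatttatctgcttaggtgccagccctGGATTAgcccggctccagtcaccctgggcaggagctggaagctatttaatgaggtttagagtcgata
Cnga1, chr5:72642753-72643002: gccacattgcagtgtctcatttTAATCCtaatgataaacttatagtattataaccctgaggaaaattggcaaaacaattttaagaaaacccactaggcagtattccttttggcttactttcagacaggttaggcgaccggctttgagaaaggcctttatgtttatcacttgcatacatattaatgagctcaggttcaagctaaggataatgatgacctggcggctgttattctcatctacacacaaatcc
Samd11 was chosen after its values were seen.

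Of the genes that rods share with cones 27 of 29 were lower and 1 higher, with a median of -2.22. The higher one was Ahi1, a protein of the ciliary transition zone (0.43), chosen after its values were seen. Prph2, a disc-rim protein of outer segments, read 12.55 and 12.32 in WT and 7.83 and 8.01 in rd1, a difference of -4.52. Rdh12, a retinol dehydrogenase (-4.18), Impg1, a proteoglycan of the matrix around photoreceptors (-4.09), and the actin bundler Fscn2 (-3.95) also fell. Crx itself fell by 1.77, and Otx2, a homeodomain factor of photoreceptors, bipolar cells and pigment epithelium, fell by 0.25. Crx and Otx2 were chosen after their values were seen. The list of outer-segment lipid and retinoid genes had 13 of 20 members lower. Among them, Crb1, a polarity protein of the outer limiting membrane, fell by 3.10, the retinoid transporter Abca4 fell by 2.77, and Agpat3, which makes the docosahexaenoic phospholipids of outer segments, fell by 2.44.

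Most of the strong falls lay outside the lists. Of the 410 genes at least 2-fold lower, 44 were rod or shared photoreceptor genes and 343 were in none of the lists. Pdzph1 had the second-largest fall of all genes, from 11.65 and 11.72 in WT to 5.96 and 6.07 in rd1 (-5.67 ± 0.23, 50.8-fold). The potassium channel Kcnj14 fell by 4.59, Nt5e, the ectonucleotidase CD73 found on maturing rods, fell by 4.46, and Nxnl2, a rod-derived cone viability factor, fell by 4.40. Further falls were those of the retinal dystrophy genes Cerkl (-3.84) and Fam161a (-2.71), of Mef2c, a transcription factor (-3.48), of the riboflavin-binding Rtbdn (-2.80), of Rgs9, which shuts off transducin (-2.73), and of the arginase Arg2 (-2.86). The water channel Aqp1 fell by 2.66 but differed between the rd1 arrays, at 6.74 and 8.58. These last 7 genes were chosen after their values were seen.

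Cone genes did not move as one. Of 17, 6 were higher and 5 lower (background 23.8% and 11.6%), and the median was 0.11. Pde6c, the catalytic subunit of the cone phosphodiesterase, read 8.93 in both WT arrays and 10.48 in both rd1 arrays, a rise of 1.55 ± 0.12. Cone arrestin Arr3 rose by 1.04, and both genes were also higher when centred, by 1.09 and 0.59. At PN28 and PN35, with 1 array per genotype and age, Pde6c stood at 1.03 and 1.16 and Arr3 at 0.14 and 0.09. The short-wavelength opsin Opn1sw read 12.72 and 12.82 in WT and 12.15 and 12.26 in rd1, a difference of -0.56 (adjusted p = 1.21e-05), and Thrb, a nuclear receptor of cone differentiation, fell by 0.89. Gnb3, the cone transducin beta subunit, rose by 0.50. Gnat2, cone transducin alpha, rose by 0.21 with an adjusted p of 0.049 on the deposited scale and was called lower when centred (-0.25). The rise was no longer called when any one of the 4 arrays was left out (adjusted p from 0.0665 to 0.258, limma). The largest falls in the list were those of Pex5l, an adaptor of ion channels (-3.14, with WT arrays at 10.01 and 11.36), and Cplx4, a complexin of photoreceptor ribbon synapses (-2.54). Opn1sw, Thrb, Gnb3 and Gnat2 were chosen after their values were seen.

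**Figure D2:**
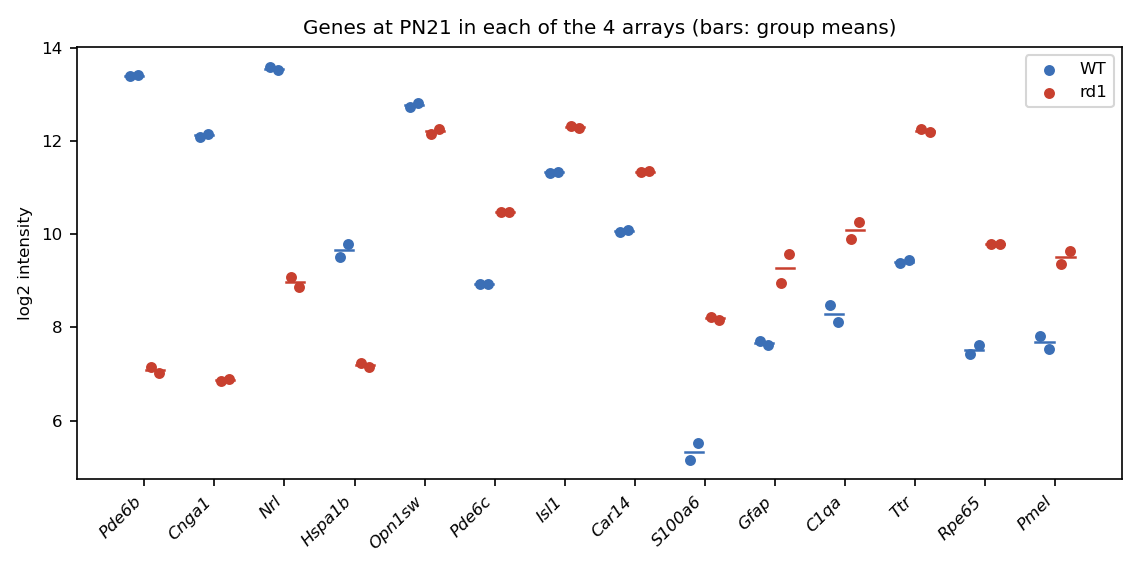
Log2 intensity of 14 genes in each of the 4 arrays at PN21, with a bar at each group mean. Rod genes and Hspa1b are lower in both rd1 arrays, and glial, microglial and pigment epithelium genes are higher, with no overlap between groups for any gene shown.

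Inner neurons were mostly higher by about the same amount. Among bipolar genes 19 of 23 were higher (median 0.62), among horizontal cell genes 7 of 10 (0.40), among amacrine genes 21 of 24 (0.45) and among ganglion cell genes 15 of 19 (0.46). Of the horizontal cell genes, 3 were higher without WT replicate 1 and 4 without rd1 replicate 2. When centred, 6, 3, 7 and 3 were higher and 2, 4, 4 and 5 lower, in the same order, and the medians ran from -0.06 to 0.17, where 0 is set by the amacrine and ganglion genes themselves. The bipolar genes that rose most were Gpr179, an anchor of the on bipolar signalling complex, by 1.16, and Grik1, a glutamate receptor of off bipolar cells, by 1.11. Isl1, a transcription factor of on bipolar cells, amacrine and ganglion cells, read 11.31 and 11.34 in WT and 12.31 and 12.27 in rd1, a rise of 0.97 that held when centred (0.51). The kinase Prkca, the common label of rod bipolar cells, rose by 0.40 and was at -0.06 when centred (adjusted p = 0.562). Isl1 and Prkca were chosen after their values were seen. In the same list Rgs9bp fell by 2.92 and Gnb5 fell by 1.13, members of a complex that ends the transducin signal and is shared with photoreceptors.

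Further inner-retina genes rose by less than 2-fold. The amacrine genes Sostdc1 and Lgr5 rose by 0.96 and 0.87, the ganglion cell gene Sncg, gamma-synuclein, by 0.79 and Tppp3, a tubulin-binding protein, by 0.88, and Tpm3, in the horizontal cell list, by 0.77. Of the 24 neurotransmitter receptor genes 16 were higher, among them the AMPA receptor subunit Gria4 (0.91). In the ribbon and photoreceptor synapse list 14 of 24 were lower and 6 higher. Cabp4, which tunes the calcium channel of photoreceptor terminals, fell by 3.74, Egflam, pikachurin of the photoreceptor cleft, fell by 2.92 and the vesicular glutamate transporter Slc17a7 fell by 1.91.

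Müller glia, the radial support cells of the retina, had 20 of 25 genes higher, a median of 0.69, and 13 higher under both scalings (background 4.39%). When centred, 4 of the 25 were lower and the list median was 0.24. Their mean per array was 9.82 and 9.83 in WT and 10.43 in both rd1 arrays. Car14, a carbonic anhydrase of the glial surface, read 10.05 and 10.09 in WT and 11.32 and 11.36 in rd1, a rise of 1.27 ± 0.09 (0.81 when centred). Id3, an inhibitor of basic helix-loop-helix factors, rose by 1.18, clusterin (Clu) by 1.10, the glutamate transporter Slc1a3 by 1.00, Sox2 by 0.97, the potassium channel Kcnj10 by 0.90 and the intermediate filament Vim by 0.93. Kcnj13, a potassium channel expressed in both Müller glia and pigment epithelium, rose by 1.23. Glutamine synthetase, Glul, was not called (0.22, adjusted p = 0.188). The lactate transporter Slc16a1 fell by 1.24. Clu, Slc1a3, Sox2, Kcnj10, Vim and Glul were chosen after their values were seen.

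Genes of reactive glia held the largest fitted rise. S100a6, a calcium-binding protein, read 5.16 and 5.51 in WT and 8.23 and 8.15 in rd1, a rise of 2.85 ± 0.27 or 7.21-fold (2.39 when centred). Its WT levels were close to the 10th percentile of genes (5.03 to 5.10) and were not shown to be above background, so the size of its fold is uncertain. In all, 18 of 29 were higher and none of the 29 was lower, with a median of 0.49 and 11 higher under both scalings. When centred, 5 of the 29 were lower and the list median was 0.04, so the list as a whole rose about as much as the amacrine and ganglion genes. The protease inhibitor A2m rose by 2.39, Serpina3n by 2.04, the hyaluronan receptor Cd44 by 1.79, the endothelin receptor Ednrb by 1.73, the transcription factor Cebpd by 1.75 and the siderophore-binding Lcn2 by 1.58. Gfap, the intermediate filament that Müller glia take up after injury, read 7.70 and 7.61 in WT and 8.96 and 9.57 in rd1. Its rise was 1.61 ± 0.23, and its rd1 arrays differed from each other by more than its WT arrays. Edn2, an endothelin that injured photoreceptors make, was not called at PN21 (-0.10, adjusted p = 0.733). The connexin Gja1, in the astrocyte list, rose by 1.56. It had stood at -0.05 at PN15, and its deviations correlated with the pigment epithelium mean (r = 0.50). Its difference was -0.24 with that mean as a covariate. That fit is poorly determined, since the mean differed by 1.29 between genotypes with a residual SD of 0.087. The source of the Gja1 rise was not tested. Ednrb, Cebpd, Lcn2, Gfap and Edn2 were chosen after their values were seen.

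The metallothioneins, which bind zinc and copper, were among the largest rises. Mt2 read 9.00 and 9.27 in WT and 11.62 and 11.90 in rd1 (2.63 ± 0.20), and Mt1 rose by 2.30. Of 19 oxidative stress genes, the list that holds them, 11 were higher (background 23.8%) and 2 lower (1 or none lower without any one of the 4 arrays), with the glutathione transferase Gstm1 at 1.09. Of the 172 genes at least 2-fold higher, 120 were in none of the lists. They included the glutathione transferase Mgst1 (1.78), the inflammatory transcription factor Cebpb (1.71), the stress-response regulators Nupr1 (1.62) and Atf5 (1.47), the signalling molecule Wnt5a (1.47), the hepatocyte growth factor receptor Met (1.34), the lymphatic growth factor Vegfc (1.25) and the cytokine Il33 (1.07). These 8 genes were chosen after their values were seen. Each was also called higher when centred, as was every rise of at least 2-fold.

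Microglia and macrophage genes were higher in 24 of 32 cases and lower in 1 case, with a median of 0.71 and 15 higher under both scalings. When centred, 7 of the 32 were lower and the list median was 0.25. Complement C1qa read 8.47 and 8.11 in WT and 9.90 and 10.26 in rd1 (1.79 ± 0.13), its partner C1qc rose by 1.74, the lysosomal protease Ctss by 1.66, the lymphocyte antigen Ly86 by 1.51 and the signalling adaptor Tyrobp by 1.02. P2ry12, a receptor that marks resting microglia, rose by 0.81. Among lysosome and autophagy genes 15 of 24 were higher and none of the 24 lower, including progranulin, Grn (0.76), and cathepsin Ctsz (0.68). The lipid carrier Apoe rose by 1.15 and the lipid exporter Abca1 by 0.78. Complement and chemokine genes were called no more often than all genes, with 4 of 21 higher and 1 lower (background 23.8% and 11.6%) and a median of -0.01. The largest rise among them was that of the C1 inhibitor Serping1, from 6.77 and 6.75 to 8.99 and 9.36 (2.41). Tyrobp and P2ry12 were chosen after their values were seen.

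Interferon and antigen presentation genes were higher in 10 of 39 cases (background 23.8%) with a median of 0.11, and the WT arrays differed in them. WT replicate 1 was above WT replicate 2 in 39 of 39 members, by a median of 0.54, against 53.1% of all genes and a median of 0.01. Ifit1, induced by interferon, read 7.44 and 5.08 in WT and 6.21 and 6.81 in rd1, and the membrane restriction factor Ifitm3 read 10.16 and 8.06 against 9.76 and 10.49. The WT arrays of Ifit1 lay on either side of both rd1 arrays, and 1 WT array of Ifitm3 lay between its rd1 arrays. Neither gene was called. Without WT replicate 1 there were 17 members higher, without WT replicate 2 there were 5, and without rd1 replicate 2 there were 2. B2m, the light chain of class I molecules, differed between WT arrays too (9.75 and 8.88) but stood clear of them in rd1 (11.30 and 11.68, a rise of 2.18 ± 0.24). Ifit1 and Ifitm3 were chosen after their values were seen.

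**Figure D3:**
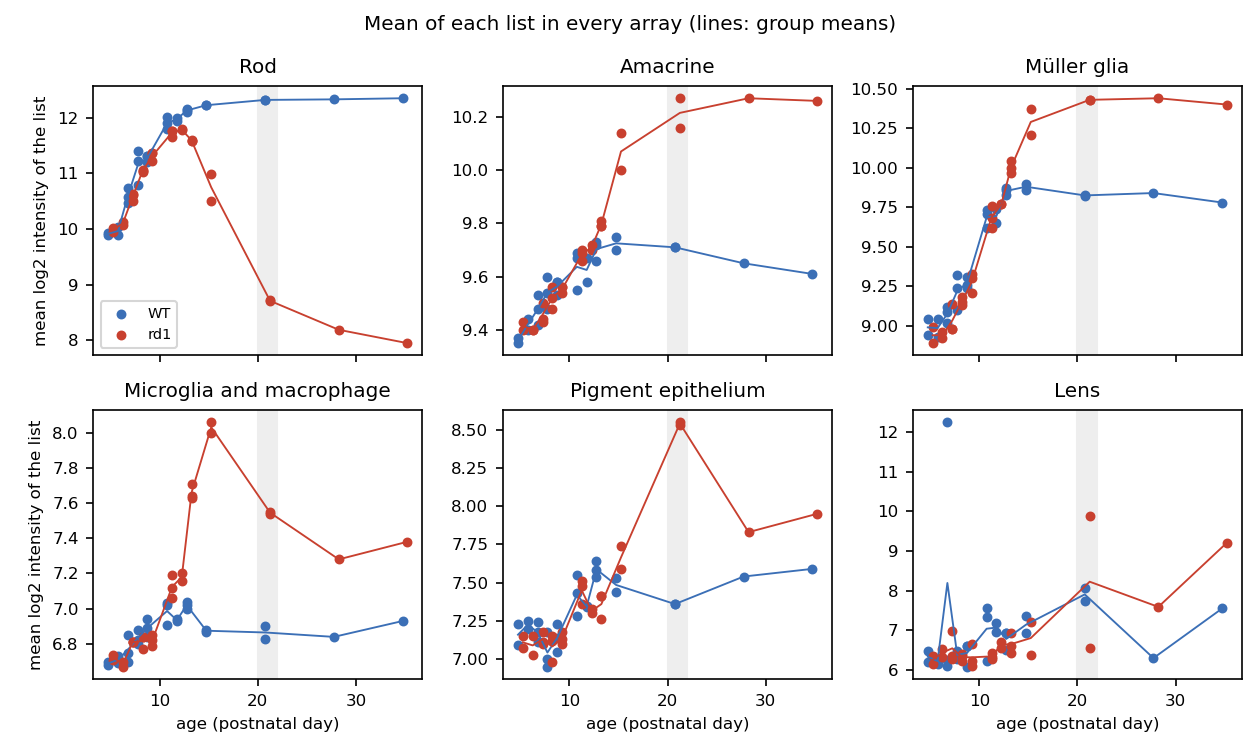
Mean log2 intensity of 6 gene lists in each of the 54 arrays by age, with lines through group means and PN21 shaded. The rod list parts from WT before PN21, the amacrine and Müller lists are higher in rd1 at PN21, the rd1 microglia list is higher at PN15 than at PN21, and the pigment epithelium list peaks in the rd1 arrays of PN21, while the lens list differs widely between those 2 arrays.

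Pigment epithelium genes made up much of the top of the list of rises. Of 30, 22 were higher and 1 was lower, with a median of 0.96, and 16 were higher under both scalings. When centred, 5 of the 30 were lower and the list median was 0.50. Members of the list were 15 of the 172 genes at least 2-fold higher (8.72%). The retinoid isomerase Rpe65 read 7.43 and 7.61 in WT and 9.78 in both rd1 arrays (2.26 ± 0.25). The thyroid hormone carrier Ttr rose by 2.82, the anion exchanger Slc26a7 by 2.67, the retinol acyltransferase Lrat by 2.57, the retinal G protein-coupled receptor Rgr by 2.38 and the retinol dehydrogenase Rdh5 by 2.19. Ptgds, prostaglandin D synthase, rose by 1.99. Of pigment synthesis genes, Dct rose by 2.65, Pmel by 1.82 and Tyrp1 by 1.82. The chloride channel Best1, also of pigment epithelium, was not called (0.09). Rdh5, Ptgds, Pmel, Tyrp1 and Best1 were chosen after their values were seen.

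Both rd1 arrays of PN21 stood apart from all others in these genes. The mean of the 26 members that are in no rod, photoreceptor, bipolar or Müller list was 8.39 and 8.36 in rd1 and 7.08 in both WT arrays, and the other 52 arrays (WT PN21 included) lay between 6.61 and 7.69. The median difference of the 26 was 0.09 at PN15, 1.26 at PN21, 0.15 at PN28 and 0.19 at PN35. Whether more pigment epithelium came with the retinas of this age, or its transcripts rose, cannot be told apart from these 2 arrays. Within groups, the deviations of the 26 genes correlated with the mean of the other pigment epithelium genes over 50 arrays by a median r of 0.33, from -0.06 to 0.87, and 8 of 26 reached 0.5. Among the highest were Rgr (r = 0.87), Dct (0.87), Ttr (0.79), Pmel (0.77), Rdh5 (0.71) and Rpe65 (0.69), and low ones were Slc26a7 (0.10), Folr1 (-0.01) and Krt18 (-0.01). Outside the list the value was 0.08 for S100a6, -0.04 for Gfap, -0.03 for C1qa and 0.11 for Mt2. These correlations are descriptions over arrays that share their normalization. Of the 172 genes at least 2-fold higher, 9 (5.23%) had a correlation of at least 0.5, against 1.28% of all genes. Folr1 and Krt18 were chosen after their values were seen.

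Later ages separated the rises further, as values from 1 array per genotype and age without a test. Of the 4325 higher genes, 3926 (90.8%) were above 0 at both PN28 and PN35, against 39.2% of all genes, and of the 2117 lower genes 1922 (90.8%) were below 0 at both, against 38.8%. Of the 798 higher under both scalings, 484 (60.7%) had a centred difference above 0 at both ages, against 5.72% of all genes. Among the 172 genes at least 2-fold higher, 60 stood at 1 or more at both later ages, and 17 stood under 0.5 at both. These 17 included Ttr (0.33 and 0.41), Lrat (0.24 and 0.23), Rgr (-0.27 and -0.09), Rpe65 (-0.38 and -0.45) and Rdh5 (-0.07 and 0.09), all in the pigment epithelium list. They were the only 5 of the 17 in that list, and 4 of the 17 had a correlation with the pigment epithelium mean of at least 0.5. The collagen Col8a2 (0.48 and 0.49) and the paraoxonase Pon1 (0.03 and 0.42) were among the 17 too, and Pon1 was chosen after its values were seen. So was cone arrestin Arr3 (0.14 and 0.09), whose correlation with that mean was -0.54. Pigment genes kept more of their rise, with Pmel at 1.41 and 1.31, Dct at 1.27 and 0.93 and Tyrp1 at 0.77 and 1.17. Genes of reactive glia differed among themselves. S100a6 was at 2.70 and 2.75, Cd44 at 1.88 and 1.76 and Cebpd at 2.20 and 2.25, while A2m was at 1.54 and 1.53 and Serpina3n at 1.39 and 1.32, lower than at PN21.

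**Figure D4:**
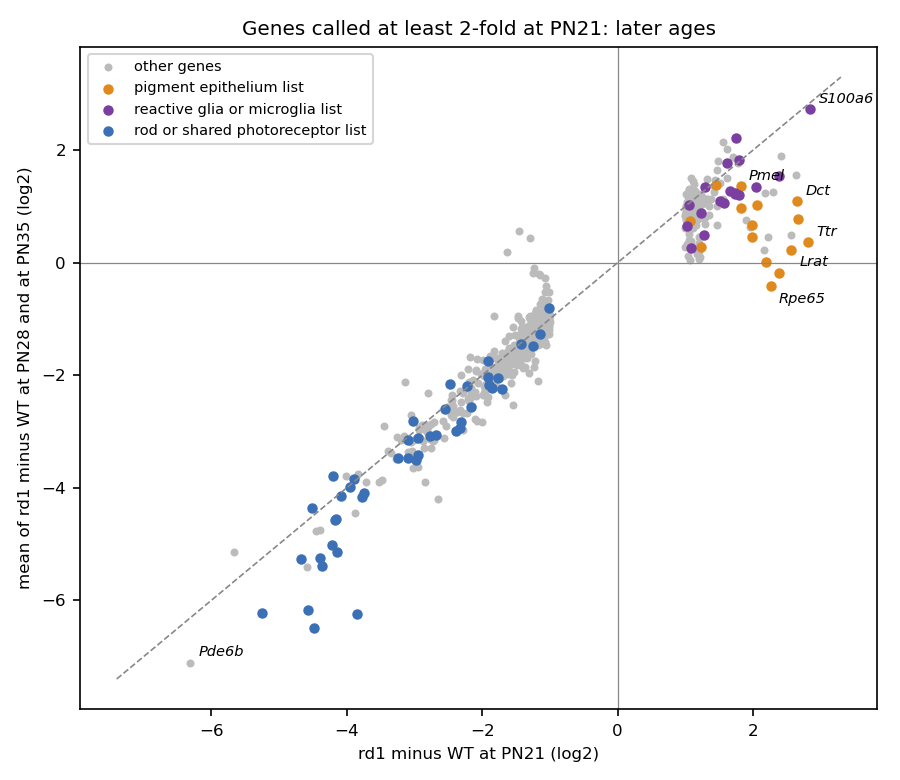
Mean of the differences at PN28 and at PN35 (log2, 1 array per genotype and age) against the difference at PN21, for the genes called at least 2-fold at PN21. The dashed line marks equality. Rod genes such as Gnat1 (-3.85 at PN21, -5.89 and -6.60 later) lie below it, and pigment epithelium genes such as Rpe65 and Rgr drop to 0 or below.

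Between PN15 and PN21 the genotype difference changed in 878 genes upward (4.83%) and 519 downward (2.85%), tested as a difference of differences in the same fit. Leaving out 1 array of either age moved the counts to between 353 (without rd1 PN15 replicate 2) and 1136 (without rd1 PN15 replicate 1) upward, with 511 and 567 without WT PN21 replicate 1 and rd1 PN21 replicate 2, and 492 and 560 without WT PN15 replicates 1 and 2. Downward they ran from 316 to 624, at their lowest without rd1 PN15 replicate 2, with 340 without WT PN15 replicate 2. Ribosomal centring gave 115 upward and 6521 downward, and amacrine and ganglion centring 335 and 954, so the balance of directions depends on the scale. All 21 rod genes and 22 of 29 shared photoreceptor genes fell further. The largest changes were those of Nrl (from -1.35 at PN15 to -4.58 at PN21), Pde6b (from -3.15), Cnga1 (from -2.12), Pde6a (from -1.66) and Gnat1 (from -0.93). Of the 410 genes at least 2-fold lower, 209 were already at -1 or below at PN15, and for 269 the fall was larger at PN21. Upward, the largest changes were those of Ttr, Col8a2, Lrat, Dct and Rgr, which had stood between 0.04 and 0.29 at PN15. In the pigment epithelium list 16 of 30 changed upward. Pde6c went from 0.30 to 1.55 and Atf5 from 0.38 to 1.47.

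Microglial genes moved the other way, with 13 of 32 lower at PN21 than at PN15 in their genotype difference and 1 higher, and the list's median went from 1.04 to 0.71. C1qa went from 2.78 to 1.79, C1qc from 2.62 to 1.74, Tyrobp from 2.15 to 1.02 and Ctsz from 1.54 to 0.68. All 4 were still called higher. Edn2 went from 1.82 to -0.10 and the immediate early gene Fos from 1.58 to -0.33, which was not called at PN21 (adjusted p = 0.195). Fos was chosen after its values were seen. S100a6, A2m, Serping1, Mt1 and Mt2 were at 2.12 to 2.99 at PN15 and their change was not called.

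**Figure D5:**
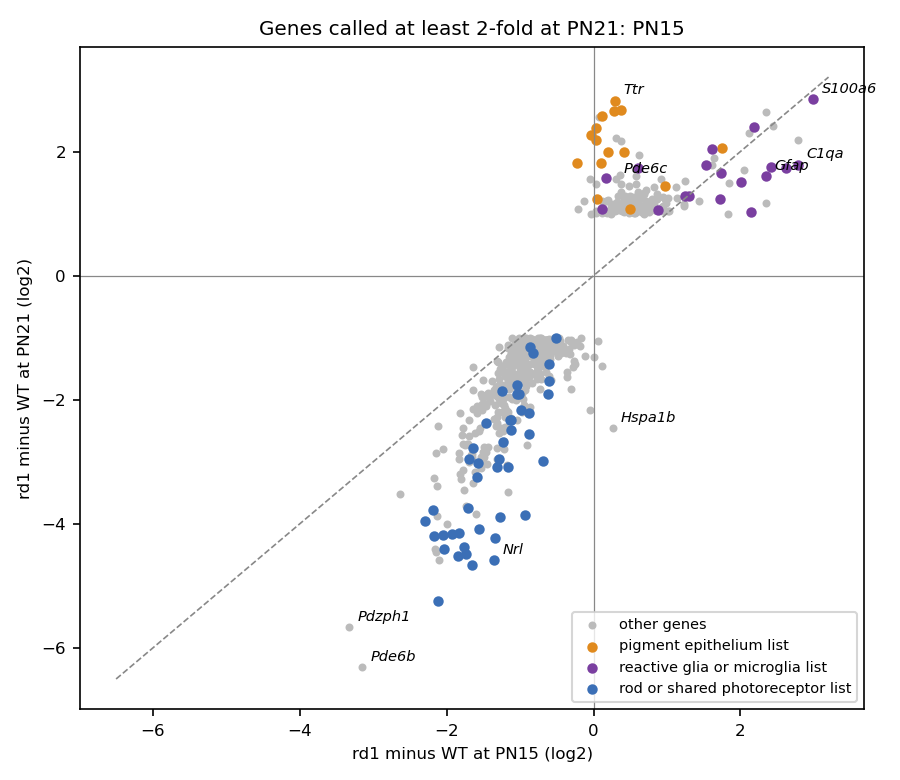
Difference at PN21 against that at PN15 (log2) for the genes called at least 2-fold at PN21. Photoreceptor genes lie below the dashed line of equality, most pigment epithelium genes start near 0 at PN15 (Krt18, at 1.75, does not), and several microglial genes lie below the line on the right.

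The inducible Hspa1 heat shock genes fell at PN21. Hspa1b, an inducible HSP70, read 9.51 and 9.79 in WT and 7.24 and 7.15 in rd1, a difference of -2.46 ± 0.18 (adjusted p = 1.05e-14), and its neighbour Hspa1a fell by 2.17. The coding sequences of these paralogs are nearly identical, so their probe sets may share signal. Their differences were 0.26 and -0.05 at PN15, and -2.44 and -2.67 at PN28, where each genotype had 1 array and nothing was tested. Of the 17 heat shock genes 4 were higher and 4 lower (background 23.8% and 11.6%), with 2 higher without WT replicate 1. The series title names the proteasome, and of its 14 core genes 9 were higher by a median of 0.23 over the list. The largest rise was that of Psmb3, at 0.58. Centring takes 0.46 off every difference, which left little room for a core gene to be called higher. When centred none of the 14 was higher (limma, also none at an unadjusted p under 0.05) and 10 were lower. Without WT replicate 1 only 1 core gene was higher, and without rd1 replicate 2 there were 3. Of 23 regulator genes 11 were higher and 2 lower, with the largest rise, of Psmc1, at 0.48. That is close to the 0.46 taken off by centring, so a centred rise was hardly possible. When centred none of the 23 was higher (limma, also none at an unadjusted p under 0.05). Without WT replicate 1 and without rd1 replicate 2 the regulator genes higher were 5 and 6. Of the 6 immunoproteasome and activator genes 4 were higher, and Psme1 (1.01) and Psmb10 (0.76) were higher under both scalings, and without rd1 replicate 2 there were 2 higher. These are transcripts, and proteasome protein or activity was not measured.

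Energy genes were divided. Of 23 glycolysis genes 9 were lower and 6 higher (background 11.6% and 23.8%), with Pfkfb2, which raises the allosteric activator of phosphofructokinase, at -1.96 and hexokinase Hk2 at -1.78. The lactate transporter Slc16a8, which pigment epithelium expresses, rose by 1.07, and stood at -0.21 at PN15 and 0.10 at PN28. Of 33 oxidative phosphorylation genes 12 were higher and 3 lower, none of the 33 by as much as 2-fold. The largest rise was 0.43, under the 0.46 that centring takes off every difference, so no member could be higher when centred. When centred none of the 33 was higher (limma, also none at an unadjusted p under 0.05), and on the deposited scale 6 were higher without WT replicate 1 and 5 without rd1 replicate 2. In the cilium transport list 15 of 28 were lower, with the BBSome genes Bbs5 and Bbs9 at -2.06 and -2.02 and Cep290 at -1.41.

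The endoplasmic reticulum stress and cell death lists were called at shares not far from those of all genes (23.8% higher, 11.6% lower). Of 23 endoplasmic reticulum stress genes 5 were higher and 4 lower, with asparagine synthetase Asns at 0.93, the glutathione-degrading Chac1 at 0.97 and the chaperone Hsp90b1 at -0.80, and 7 were lower without rd1 replicate 2. Of 28 cell death genes 9 were higher and 3 lower, with the tumour necrosis factor receptor Tnfrsf1a at 0.80, the calpain Capn2 at 0.78 and Gadd45a, a growth arrest gene, at -1.21, and 5 were higher without WT replicate 1. Of 21 immediate early genes 2 were higher and 5 lower, with 1 lower without WT replicate 1, 2 lower without rd1 replicate 1 and 2 without rd1 replicate 2, and the largest fall was that of Ier3 (-1.17). Vascular genes showed 4 of 22 higher and 6 lower, with the endothelial diaphragm gene Plvap at 0.87 and the pericyte channel subunit Abcc9 at -0.82.

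Lens genes separated the 2 rd1 arrays and not the genotypes. Their mean was 9.89 and 6.56 in rd1 and 8.07 and 7.74 in WT. Cryaa, alpha-crystallin of the lens, read 12.23 and 7.15 in rd1 and 11.10 and 10.61 in WT, and none of the 16 lens genes was called (limma, also none at an unadjusted p under 0.05). Without rd1 replicate 2 there were 2 lens genes higher, and without rd1 replicate 1 there was 1 lower. The part of lens tissue in other results was not tested. Of choroid and scleral genes, tissue that lies behind the pigment epithelium, 7 of 14 were higher with a median of 0.19, and 4 were higher without WT replicate 1 and likewise without WT replicate 2. Muscle and red blood cell lists lay between 6.05 and 6.22 and between 5.80 and 5.92 in the 4 arrays. The carbonic anhydrase Car3 also differed between rd1 arrays, at 6.87 and 9.97, and so did Col8a2, at 7.31 and 8.67. Car3 was called (2.22 ± 0.38), with an error taken from all 50 arrays that understates the gap between its rd1 arrays. Car3 was chosen after its values were seen.

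Around Pde6b, where sequence linked to the rd1 allele could differ between the mice, calls were about as frequent as elsewhere. Of 397 genes within 20 Mb, 138 were called (34.8%, against 35.4% of all genes), 94 higher and 44 lower, with a median of 0.04.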

How the data were processed

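The authors deposited linear intensity values per probe set, summarised by RMA per the submitters' processing notes (version and settings not given in the sources used here). Array medians ran from 127.2437 to 133.5728. Detection calls and scanner files were not used here. Values were taken to log2. Of 45037 probe sets 34945 had 1 gene symbol, 932 several and 9160 none, and the brightest probe set stood for each of 18193 genes.

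limma 3.58.1 (R 4.3.3) fitted 1 mean per genotype and age to 50 arrays of 10 ages (30 residual df, eBayes with intensity trend, Benjamini-Hochberg over all genes). The single arrays of each genotype at PN28 and at PN35 stayed outside the fit. The number of arrays limits precision: in simulated data over 18193 genes for the PN21 comparison, 67.2% of changes of 0.5 log2, 92.5% of 1 and 100% of 2 were called. Only 67, 67 and 66 genes were changed there, far fewer than were called in the data, and noise was independent between genes. These shares therefore need not hold for the real arrays. The 38 lists name 907 genes, 809 measured; the others were not analysed here.

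The members and lists were chosen with earlier results of these data known. Named genes were Pde6b, the 12 largest rises and falls among called genes whose groups do not overlap, the 12 largest rises when centred, up to 4 genes per list by size of difference with called ones first, and the 5 largest changes from PN15 each way, clones and predicted genes passed over. Others are said to be chosen after their values were seen. Alternatives were quantile normalization, both centrings, a filter on dim genes, the mean of all probe sets, no trend, the PN21 arrays alone, a replicate block, a pigment epithelium covariate and each array left out.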

Additional observations from a re-analysis of the deposited data

Results flagged for a closer look

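Among the genes whose genotype difference changed between PN15 and PN21, by limma's test of the difference of differences with Benjamini-Hochberg adjustment, are the following. Rod genes fell further, by a change of -3.16 in Pde6b, -3.13 in Cnga1, -3.01 in Pde6a, -3.23 in Nrl and -2.92 in Gnat1. The cone gene Pde6c changed by 1.25 and the stress-response gene Atf5 by 1.09. Pigment epithelium genes changed by 2.53 in Ttr, 2.36 in Dct, 2.46 in Lrat and 2.34 in Rgr, and the collagen Col8a2 by 2.49. Genes of microglia and lysosomes came down, by -0.99 in C1qa, -0.89 in C1qc, -1.13 in Tyrobp and -0.86 in Ctsz. The heat shock genes Hspa1b and Hspa1a changed by -2.72 and -2.12, Edn2 by -1.92 and Fos by -1.91.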

How the results depend on the processing

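Centred on amacrine and ganglion genes, on ribosomal protein genes, and with the pigment epithelium mean as a covariate, genes higher at PN21 numbered 798, 1630 and 1577, genes lower 13071, 7577 and 861, and rises of at least 2-fold 45, 61 and 947. Falls of at least 2-fold numbered 864 on the amacrine and ganglion scale. Genes whose difference changed upward from PN15 numbered 335, 115 and 307 in those 3 fits, and downward 954, 6521 and 282, with 786 under quantile normalization. Leaving out each array of PN15 or PN21 gave 353 to 1136 upward and 316 to 624 downward. Of the centred counts, the covariate gave 279 higher, and leaving out the dimmest 30% of genes, which tests fewer genes, gave 8476 lower. The covariate is poorly determined here, since the mean differed by 1.29 between genotypes with a residual SD of 0.087. Signs turned under it in Gja1 (-0.24), Rpe65 (-0.77), Rdh5 (-0.075), Pmel (-0.97), Tyrp1 (-0.30), Nupr1 (-0.00043, change -0.10), Edn2 (0.097), Fos (0.058), Best1 (-0.13), Ifit1 (-3.01), Ifitm3 (-2.29), Ttr (-2.94, change -2.28), Dct (-0.94, change -0.64) and Rgr (-1.37, change -0.80). On the amacrine and ganglion scale and the ribosomal scale they turned in Glul (-0.23 and -0.043), Best1 (-0.36 and -0.17), Gnat2 (-0.25 and -0.059) and Ifit1 (-0.20 and -0.014), and on the first in Prkca (-0.055). Leaving out each PN21 array in turn moved Cryaa from -3.71 to 1.38, Ifit1 from -0.93 to 1.43 and Ifitm3 from -0.039 to 2.07, and turned Edn2 to 0.0091 without rd1 replicate 1. The cause was not tested. The labels do not say whether equal replicate numbers pair the arrays, and the main fit left them unpaired. At ages with 3 pairs, 5 of 15 same-numbered pairs correlated above 0.1, with a range from -0.4417 to 0.4863. With so few arrays per group these values cannot exclude pairing. The replicate block gave 4337 higher and 2132 lower. Chosen after seeing the data, leaving out WT PN7 replicate 3 gave 4338 and 2116, and leaving out pigment epithelium genes 4292 and 2097.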
